A study of Zea mays with 16 samples.

Results

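A set of 27 maize genes was all but silent in leaves kept at 26 °C and clearly expressed in leaves chilled at 4 °C, in the inbred lines B73 and M37W. The genes were chosen by their levels in the 8 libraries of these lines, out of 44146 nuclear gene IDs. A member had at most 1.5 CPM (the gene's count divided by the library's total count and multiplied by 1e+06) in all 4 libraries from 26 °C and at least 5 CPM in all 4 from 4 °C. The libraries of B104 and CML333 took no part in the choice. Each of the 4 lines contributed 2 leaf libraries of untreated control plants at 26 °C and 2 of plants treated at 4 °C, 16 libraries in 8 groups. All groups shared a 14 h day, a 10 h night and an irradiance of 250 µmol per square metre per second, and as far as the labels go they differed only in line and temperature. B73 is the line of the maize reference genome, B104 is often chosen for genetic transformation, and both CML333 and M37W are parents in the maize nested association mapping population. The sources used here do not give plant age, the hours of cold, or whether replicates came from separate plants, so the p-values measure the spread between these libraries, which may be technical.

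Plants that grow in warm climates, maize among them, are injured by temperatures well above freezing. In Arabidopsis, cooling of the cell membrane and a calcium signal act through the factor ICE1 to switch on the CBF (DREB1) transcription factors, whose targets include dehydrins and enzymes that make raffinose sugars. Many genes of such cold regulons have little RNA in warm plants, which is the pattern the set was picked for. None of the 27 IDs, and none of the 44146, could be matched to a name in the RefSeq gene table used here, so no member is given a name, a function or a position, and no count per pathway was possible.

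Total counts ran from 1780344 to 2705564 per library, so that 3 counts stood for 1.11 to 1.69 CPM, and the level of 1.5 CPM corresponded to 2.67 to 4.06 counts. A member that is "off" is therefore at or below the limit of detection at this depth, and its absence is not shown. Libraries at odds with their group were found with the members left out. On log2(CPM + 1) over all other nuclear IDs, the replicates of 6 groups correlated at 0.966 to 0.985, the B104 controls at 0.942 with each other and at no more than 0.81 with any other library, and the chilled CML333 libraries at 0.921. Chilled CML333 replicate 1 was most like the chilled M37W libraries (0.936 and 0.935), and chilled replicate 2 was most like the CML333 controls (0.935 and 0.934). Noncoding ENSRNA IDs took 5.03% and 3.69% of the counts of the B104 controls and at most 0.101% elsewhere, and plastid IDs took at most 0.000628% there against at least 0.00532% elsewhere. Nuclear leaf markers could not be looked up by name, and the plastid genes rbcL and psbA were at or near 0 in all 16 libraries of this poly(A)-primed assay, so the label "leaf" was not checked.

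In B73 and M37W the change was from a few reads to many. Over the 4 controls of these lines together, a member had 0 to 9 counts with a median of 4, and over the 4 chilled libraries 64 to 388 counts with a median of 128. The summed level of the 27 members was 7.36 and 14.8 CPM in the B73 controls and 478 and 540 CPM in the chilled B73 libraries. In M37W it was 14.8 and 10.9 CPM in the controls and 418 and 446 CPM in the chilled libraries. These values chose the members, so they are given as a description without a test. RNA from few cells and RNA at a low level in many cells cannot be told apart in whole leaf tissue.

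**Figure D1:**
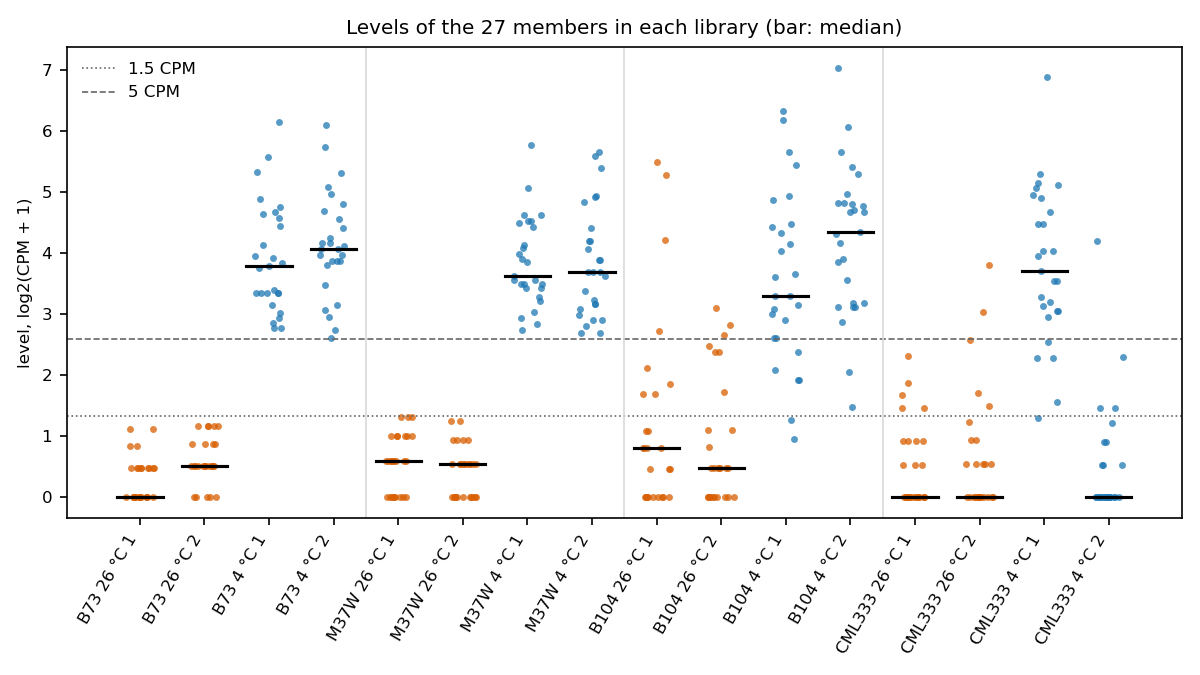
Level of each of the 27 members, as log2(CPM + 1), in each of the 16 libraries, with 26 °C in orange, 4 °C in blue, a black bar at the median, and lines at 1.5 and 5 CPM. The chilled B104 libraries and chilled CML333 replicate 1 have medians of 8.79 to 19.2 CPM, whereas chilled CML333 replicate 2 has a median of 0.

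Zm00001d026015 had the highest mean level in the chilled libraries of the choosing lines. Replicates 1 and 2 stood at 0 and 0.412 CPM in the B73 controls and at 28.5 and 67.4 CPM in chilled B73. In M37W it had 1.48 and 0 CPM in the controls and 53.2 and 46.8 CPM after chilling. Zm00001d023402 was next, with 0 and 0.412 CPM in the B73 controls and 38.8 CPM in each chilled B73 library. Its M37W controls stood at 0.988 and 0.453 CPM and its chilled M37W libraries at 20.5 and 40.9 CPM. In B73 and M37W the choice itself set every control library below every chilled one for both genes. These genes were named by a rule for IDs without a name; the others named below were picked after their values were seen.

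The set had no sharp edge. The member closest to the upper limit had 5.06 CPM in its lowest chilled library, and the nearest ID outside missed it with 4.93 CPM in 1 library. On the other side, 3 members reached 1.48 CPM in a control, and the nearest IDs outside stood at 1.55 CPM. A further 43 IDs failed the choice in 1 of the 8 libraries, 22 through a control and 21 through a chilled library. The reverse pattern, at least 5 CPM in all 4 controls and at most 1.5 CPM in all 4 chilled libraries, held for 2 IDs.

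The chilled levels of the members in B73 and M37W, which chose them, overlapped for 15 of the 27. For 8 both chilled B73 libraries lay above both chilled M37W libraries and for 4 they lay below. Among the 10283 nuclear IDs at 5 CPM or more in all 4 of these libraries the shares were 30.3% and 35.2%, and nothing particular to the members is read from these counts. Zm00001d031769 had the widest gap in favour of B73, with 46.3 and 27.0 CPM in chilled B73 and 8.19 and 6.90 CPM in chilled M37W. Zm00001d052154 had the widest gap the other way, with 6.61 and 10.1 CPM in chilled B73 and 22.01 and 27.6 CPM in chilled M37W. Replicates of a line were within a factor of 2 for 22 members in chilled B73 and for 23 in chilled M37W. The largest replicate gap was in Zm00001d020332, with 6.20 and 32.6 CPM in chilled B73. Across the 27 members, levels in the chilled replicates correlated at r = 0.585 in B73 and 0.667 in M37W, and between these lines at 0.198 to 0.558. The members are not independent points and share their libraries, so the correlations only describe them.

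**Figure D2:**
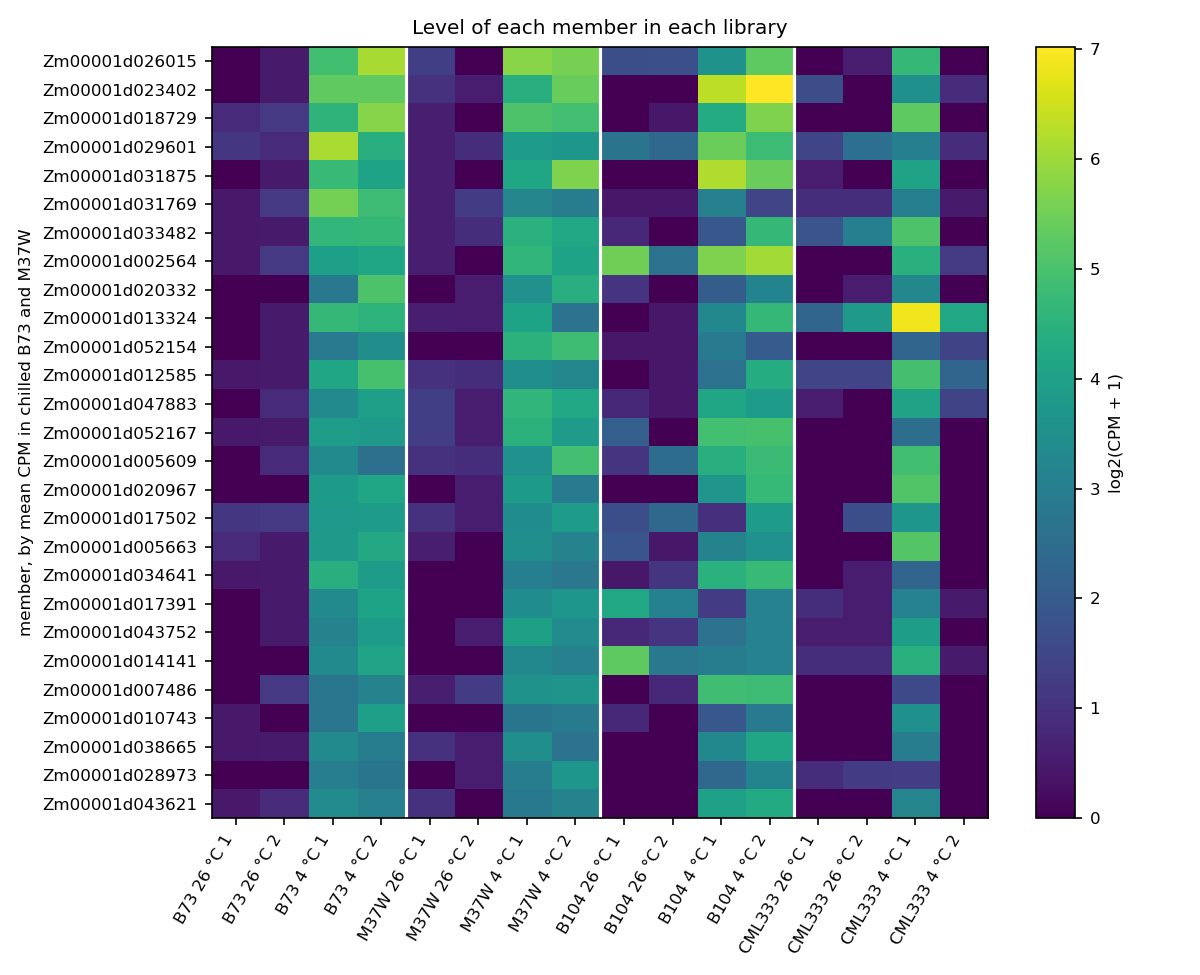
Level of each member (rows, by mean CPM in chilled B73 and M37W) in each library (columns, 4 per line), with colour giving log2(CPM + 1). Zm00001d014141 and Zm00001d002564 are bright in B104 control replicate 1, at 37.7 and 44.0 CPM, and in the last column, chilled CML333 replicate 2, Zm00001d013324 with 17.3 CPM is the 1 member at 5 CPM or more.

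In B104, which is outside the choice, most members were expressed after chilling, and the share off beforehand was near that of all nuclear IDs. In the chilled B104 libraries 21 and 25 of the 27 reached 5 CPM, 19 of them (70.4%) in both, against 25.4% of all nuclear IDs. Members were chosen at 5 CPM or more in 4 other chilled leaf libraries, so a share above that of all IDs is not particular to them. Among the 43 IDs that failed the choice in 1 of the 8 libraries, 62.8% reached 5 CPM in both chilled B104 libraries. In the B104 controls 18 members (66.7%) were at or below 1.5 CPM in both libraries, against 62.2% of all nuclear IDs. Each condition was met at the same time by 12 members, or 44.4%, against 1.85% of all nuclear IDs. Of the 43 IDs that failed in 1 library, 37.2% met both. Of the IDs that met the choice in B73 only or in M37W only, 20.4% and 32.2% did so. The gap to all nuclear IDs is therefore not particular to the members. The summed level of the members was 121 and 39.7 CPM in the B104 controls and 487 and 678 CPM after chilling. The chilled libraries thus held 6.05 and 8.42 times the control mean. The ratios of 43.1 and 48.7 in B73 and 32.5 and 34.7 in M37W were made high by the choice. No weaker response in B104 is read from them. In B104 control replicate 1, Zm00001d002564 and Zm00001d014141 alone held 44.0 and 37.7 of the 121 CPM. For 24 of the 27 both chilled libraries lay above both controls, where 16.4% of all nuclear IDs did so. For 6 members both chilled B104 libraries exceeded all 4 chilled libraries of B73 and M37W, and for 3 they fell below all 4. Of the 10283 IDs on in those 4 libraries, 7.26% and 18.5% did so; the members were chosen on the same libraries, and nothing is read from these counts.

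With edgeR (quasi-likelihood, all 16 libraries in 1 model), 18 of the 27 members rose in B104 at a Benjamini-Hochberg adjusted p under 0.05, while 27.3% of the 17410 IDs tested rose and 24.5% fell. All 27 had passed the filter on low counts, a pass that their levels in chilled B73 and M37W ensured. With the B104 libraries alone, 22 members were tested. None of the 27 fell in edgeR (0 with an unadjusted p under 0.05, and 0 in DESeq2 and in limma with voom), and 9 did not pass. The median fitted log2 fold change of the 27 was 4.22, against a median of 0 over the IDs tested. It was 3.57 with the 6 members without a control count set to their ratio to 3 control counts. The control side of this comparison comes only from the 2 libraries that stand apart, and no B104 response can be fitted without both. With control replicate 1 or 2 left out in turn, the median log2 fold change was 5.06 and 4.33, and calls of single members changed. The chilled levels do not depend on these controls.

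Zm00001d023402 had 0 counts in both B104 controls and 79.1 and 129 CPM in the chilled libraries. Against a floor of 3 counts over the control group its pooled chilled level was 186-fold higher. The lower 95% limit of the pooled ratio, for counting error alone, was 151. The rise passed (edgeR adjusted p = 8.62e-05), and the chilled B104 level of this gene was the highest of any member in any group. Zm00001d026015 moved from 2.22 and 2.27 CPM to 11.1 and 37.9 CPM, with the chilled libraries both above the controls. Its log2 fold change was 3.48 (SE 1.23, edgeR adjusted p = 0.0299, and 1.2e-07 to 0.209 over 28 alternatives). Without control replicate 1 or 2 the log2 fold change was 3.36 (SE 1.77) and 3.65 (SE 1.78), with the call lost (adjusted p = 0.143 and 0.117). It was also lost without chilled replicate 2, at 2.39 (SE 1.43, adjusted p = 0.209). Zm00001d007486 had 0 and 0.756 CPM in the controls and 28.2 and 27.2 CPM in the chilled libraries, more than in any chilled library of B73 or M37W. It rose by a log2 fold change of 6.07 (SE 1.10, edgeR adjusted p = 0.000656).

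A few members were already on in the B104 controls. Above 1.5 CPM in both controls were 6 members, and 4 reached 5 CPM in at least 1. Zm00001d014141, the only member with 0 counts in all 4 controls of B73 and M37W, had 37.7 and 6.05 CPM in the B104 controls and 6.94 and 7.58 CPM in the chilled libraries. The groups overlapped and the log2 fold change was -1.46 (SE 1.05, edgeR adjusted p = 0.264). Zm00001d017391 had 17.4 and 7.56 CPM in the controls and 1.39 and 7.58 CPM in the chilled libraries, with a log2 fold change of -1.37 (SE 0.92, edgeR adjusted p = 0.23). Zm00001d002564 was at 44.0 and 5.29 CPM in the controls and at 49.5 and 65.6 CPM in the chilled libraries. Its log2 fold change of 1.35 (SE 0.89) did not pass (edgeR adjusted p = 0.22), but passed without control replicate 1 (3.38, SE 1.15, adjusted p = 0.0366). For the first and the last of these the control replicates differed widely from each other, replicate 1 being the higher.

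**Figure D3:**
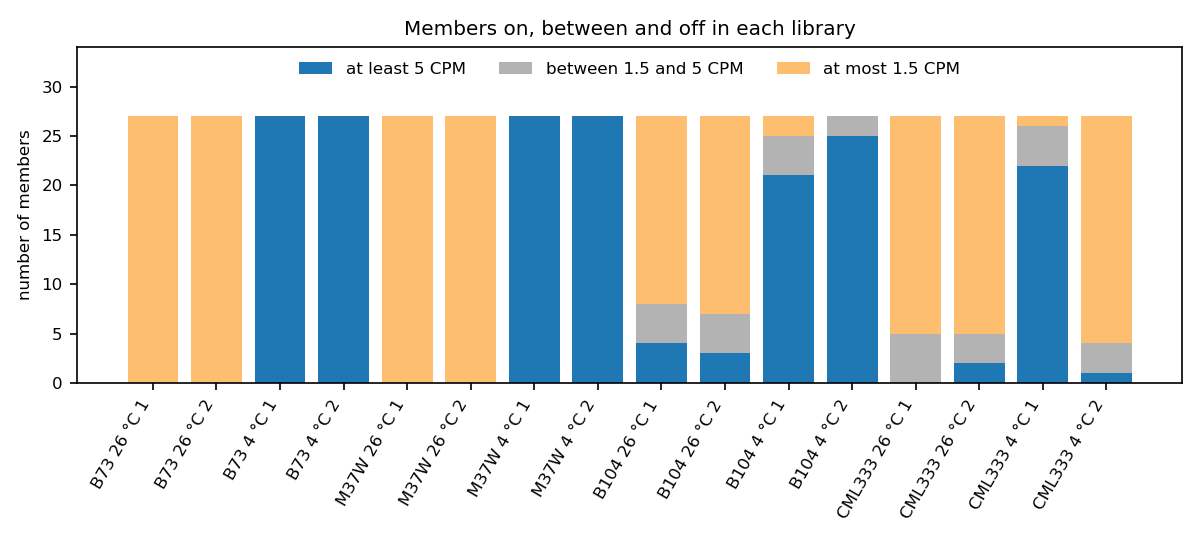
Number of members at or above 5 CPM (blue), between the limits (grey) and at or below 1.5 CPM (yellow) in each library. B73 and M37W are fixed by the choice; outside it, 21 and 25 members are on in chilled B104 and 22 and 1 in chilled CML333.

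In CML333 the 2 chilled libraries gave opposite pictures. Of the 27 members, 22 reached 5 CPM in chilled replicate 1 and 1 did so in chilled replicate 2, where 23 were at or below 1.5 CPM and 17 had no count. Of all nuclear IDs, 27.4% reached 5 CPM in each of these libraries. As for B104, a share above this in replicate 1 is not particular to members chosen as expressed in other chilled leaves. In the controls 21 members were at or below 1.5 CPM in both libraries, against 62.6% of all nuclear IDs. The summed level of the members was 17.1 and 34.4 CPM in the controls, 520 CPM in chilled replicate 1 and 29.0 CPM in chilled replicate 2. For all 27 members replicate 1 lay above both controls, against 18.8% of all nuclear IDs, whereas replicate 2 did so for 5 members, against 16.4%. Both chilled libraries lay above both controls for 5 of the 27, against 9.42%. The depth of the chilled libraries was similar, at 2080691 and 2312146 counts. Across all other nuclear IDs replicate 2 was also closest to the 26 °C libraries of its line, as given above; whether its label or its treatment differs was not tested.

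Zm00001d018729 is a case in point, with 0 counts in both CML333 controls, 38.0 CPM in chilled replicate 1 and 0 in chilled replicate 2. Zm00001d026015 had 0 and 0.447 CPM in the controls and 24.5 and 0 CPM in the chilled libraries. Zm00001d013324 was the 1 member on in both chilled libraries. It had 3.94 and 13.0 CPM in the controls and 116 and 17.3 CPM in the chilled libraries, and its value in replicate 1 exceeded every other value of a member there. It rose with a log2 fold change of 3.25 (SE 0.88, edgeR adjusted p = 0.0244, and 1.99e-07 to 0.47 over 29 alternatives). Without control replicate 1 or 2 the log2 fold change was 2.56 and 4.31, with the call lost (adjusted p = 0.204 and 0.0784), and without chilled replicate 1 it was 1.15 (adjusted p = 0.47).

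With all 16 libraries, 10 of the 27 members rose in CML333 in edgeR's test, against 10.0% of the IDs tested that rose and 5.36% that fell. None of the 27 fell in edgeR (0 at an unadjusted p under 0.05, and 0 in DESeq2 and voom), and 17 did not pass. The tool and single libraries decided this count. It was 17 in DESeq2, where 2031 of the 17410 IDs tested rose, and 2 in voom, where 1156 rose. The count was 24 without chilled replicate 2, where 13.3% of 18690 IDs rose, and 0 when either CML333 control, or chilled replicate 1, was left out. In the fits that gave 0, a smaller share of all IDs tested rose as well, so the 0 is not read as a trait of the members. The median log2 fold change of the members was 4.79 and 5.19 without control replicate 1 and 2, and 0 without chilled replicate 1. The 10 were all among the 24. In the fit without chilled replicate 2 the 1 chilled library left is assumed to vary like the other groups. There, the median fitted log2 fold change of the members was 5.27 in CML333 and 4.27 in B104. The median fitted log2 fold change of the 27 in CML333 was 4.20 with all libraries, against 0.06 over the IDs tested. It was 3.01 with the 11 members without a control count set to their ratio to 3 control counts.

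The 3 members that did not pass in CML333 even without chilled replicate 2 were Zm00001d028973, Zm00001d007486 and Zm00001d029601. Zm00001d028973 had 0.875 and 1.34 CPM in the controls and 1.44 and 0 CPM after chilling, so that no change was detectable at this depth. Zm00001d007486 had no count in the controls and 1.92 and 0 CPM after chilling (edgeR adjusted p = 0.0561 without replicate 2, and 0.0274 with the B104 controls left out as well). Zm00001d029601 stood at 1.75 and 4.92 CPM in the controls and at 7.21 and 0.865 CPM in the chilled libraries. In B104 each of the 3 rose, Zm00001d029601 from 5.54 and 4.16 CPM to 42.6 and 27.2 CPM.

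**Figure D4:**
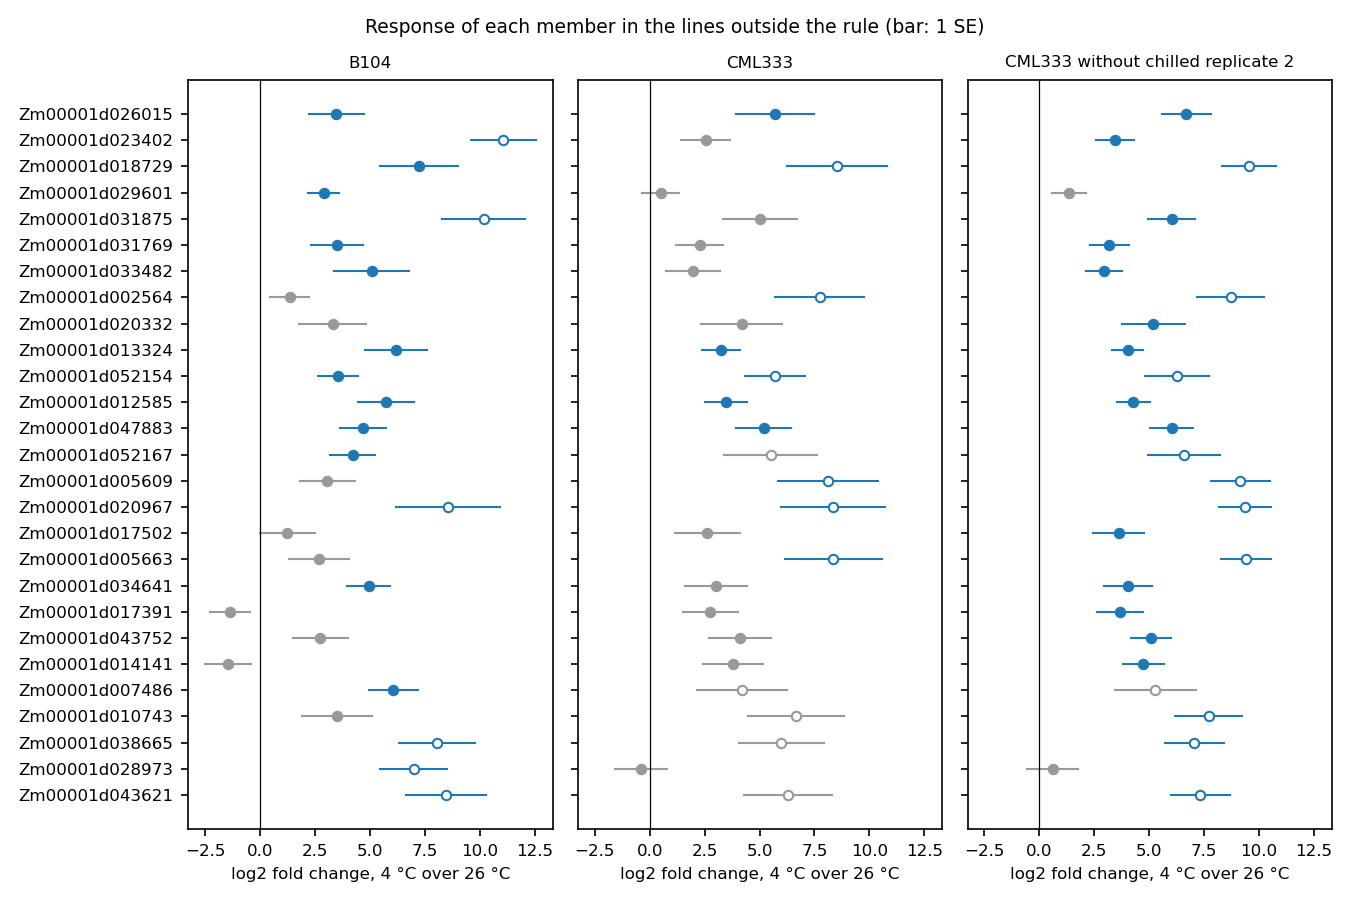
Log2 fold change (4 °C over 26 °C) with 1 SE for each member in B104, in CML333 and in CML333 without chilled replicate 2, blue where the adjusted p is under 0.05 and grey otherwise. Open circles mark members with no count in the controls, whose fitted value depends on the prior count and is no bound. Blue points number 18, 10 and 24.

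The responses of B104 and CML333 were then set against each other in the same fit, as a call in 1 line and not in the other does not show a difference. Of the 27 members, 7 rose in both lines, 11 in B104 alone, 3 in CML333 alone and 6 in neither. Over all IDs tested the shares were 5.58%, 21.7%, 4.43% and 68.3%. The test of the difference passed for 3 members. The response was higher in B104 for 2 of them (15.8% of the IDs tested) and lower for 1 (14.2%). Many members had few or no control counts, which limits this test, so shares below those of all IDs are not read as a trait of the members. The 3 were Zm00001d023402, Zm00001d028973 and Zm00001d014141. For the other 24, with standard errors of 1.11 upwards on the log2 scale, a difference was not shown, which does not make the responses alike. For Zm00001d020967, Zm00001d038665 and Zm00001d043621 the standard errors were 762, 3963 and 3985. These members had no control count in either line, and their difference could not be estimated. The directions turned with the chilled CML333 library kept. Without replicate 1 the test passed for 7 members, each with the higher response in B104 (18.3% of the IDs tested), and without replicate 2 it was higher for 2 (15.5%) and lower for 5 (10.9%). The test passed for 1 member without B104 control replicate 1 or either CML333 control.

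Sets picked by like rules gave a measure of how far the off-rule lines follow. The choice applied to 1 line alone gave 130 IDs in B73, 145 in M37W, 815 in B104 and 168 in CML333. All 27 members are by construction among the first and second of these. Among the 815 of B104 were 12 of them (44.4% of the members, 1.47% of the list), and 0 were among the 168 of CML333. The 0 rests on chilled CML333 replicate 2. In replicate 1, 16 members (59.3%) were at 5 CPM or more with both CML333 controls at or below 1.5 CPM. This share was not counted over all nuclear IDs. The B104 list rests on the 2 controls that stand apart. The reversed choice gave 62 IDs in B73, 31 in M37W, 503 in B104 and 277 in CML333. List sizes are thus not compared between lines. Of the 103 IDs that met the choice in B73 only, 38.8% were at 5 CPM or more in both chilled B104 libraries and 46.6% in chilled CML333 replicate 1. Of the 118 that met it in M37W only, the shares were 57.6% and 57.6%. For the 43 IDs that failed in 1 library they were 62.8% and 55.8%, and for the 27 members 70.4% and 81.5%. In chilled CML333 replicate 2 the shares were 8.74%, 14.4%, 6.98% and 3.70%, below the 27.4% of all nuclear IDs in that library. The differences between these sets were not tested, since the sets were picked on levels in libraries they share.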

How the data were processed

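The authors deposited whole-number read counts per gene ID, 1 table per library and not normalized, from QuantSeq forward libraries, which read the 3′ end of poly(A) RNA without regard to transcript length. Reads were aligned with STAR, per the submitters' processing notes; the build, the counting and the handling of reads from near-identical genes are not stated in those notes or the labels, so members with close copies may share reads. The 16 columns of the authors' per-line scaled tables were not used. Counts were tested in edgeR 4.0.16 (R 4.3.3): filterByExpr by group, TMM scaling, and a quasi-likelihood model of 8 group means without covariates, two-sided, with p-values adjusted over 17410 IDs by Benjamini-Hochberg and a threshold of 0.05. The SE is the log2 fold change divided by the root of the F statistic. Ratios to groups without counts use a floor of 3 counts over the group; floors cover counting error only. The procedure was tested on simulated data. Members, lists and alternatives were chosen with earlier results of these data known. The naming rule, for IDs without names, took the 2 members with the highest mean chilled level in B73 and M37W and up to 2 that fell. The 30 gene lists by name had 0 matched members. Alternatives used DESeq2 1.42.0 and limma 3.58.1 with voom, other scalings and filters, and fits without single libraries.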

Additional observations from a re-analysis of the deposited data

Results flagged for a closer look

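For 3 members the chilling response of B104 differed from that of CML333 in edgeR's test of the interaction. For Zm00001d023402 the difference was 8.52 on the log2 scale (SE 2.44, edgeR adjusted p = 0.0194, and 2.8e-06 to 0.99991 over 27 alternatives). Both B104 controls were at 0 counts, so this fitted value depends on the prior count. Without B104 control replicate 1 or 2 the difference was 8.51 (SE 3.08) and 8.56 (SE 2.94), with the call lost (adjusted p = 0.0592 and 0.0509). It was also lost without CML333 control replicate 1, where the control left had no count (0.99991). In CML333 the gene had 2.19 and 0 CPM in the controls and 10.6 and 0.865 CPM in the chilled libraries.

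For Zm00001d028973 the difference was 7.39 (SE 2.09, edgeR adjusted p = 0.0193, and 0.00316 to 0.068 over 26 alternatives), again with no count in the B104 controls. Without CML333 control replicate 2 it was 7.08 (SE 2.48), with the call lost (adjusted p = 0.068). Its chilled B104 libraries stood at 4.16 and 8.03 CPM.

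For Zm00001d014141 the difference was -5.24 (SE 1.74, edgeR adjusted p = 0.0402, and 8.35e-06 to 0.937 over 27 alternatives). Leaving out any of 10 single libraries ended the call. The difference was -0.58 without chilled CML333 replicate 1 (adjusted p = 0.937), -3.57 without B104 control replicate 1 (0.184), and -5.08 to -5.22 in the other 8 fits. It had 0.875 and 0.894 CPM in the CML333 controls and 21.1 and 0.432 CPM in the chilled libraries, beside the high B104 controls given above. Of the libraries that stand apart, leaving out chilled CML333 replicate 2 ended none of the 3 calls, and leaving out a B104 control ended those of Zm00001d023402 and Zm00001d014141 as given.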

How the results depend on the processing

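The set held 29 to 36 IDs when 1 of the 8 choosing libraries was ignored and 8 with an upper limit of 10 CPM; the other limits and scalings kept it within 1.5 times of 27. In B104 the count of 18 stayed within 1.5 times under all 28 alternatives (12 with only B104 and CML333, 24 without a low-count filter, 14 to 23 with a library left out). Its median log2 fold change was 4.85 with the B104 libraries alone, where 22 members were tested, and 4.24 to 5.06 with a library left out.

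In CML333 the count of 10 became 17 in DESeq2 and 2 in voom. It was 22 without a low-count filter (2513 of 28431 IDs rose) and 0 at an adjusted p under 0.01 (576 of 17410). It was 0 with only B104 and CML333 (25 members tested), 0 with CML333 alone (3 tested), and 0 to 24 with a library left out. Without the B104 controls and chilled CML333 replicate 2, added after the data were seen, it was 25. The median was 2.45 in voom, 2.03 with CML333 alone, 5.25 in that added fit and 0 to 5.27 with a library left out. Members on in both chilled CML333 libraries numbered 1, and 1 to 22 with a library left out; replicate 2 alone gave 1 against 22 in replicate 1. Of all IDs tested in CML333, 208 of 16332 rose with only B104 and CML333, and 179 of 13546 with CML333 alone. The cause of these shifts was not tested.

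The count of 3 members with different responses became 10 without a filter, 0 at an adjusted p under 0.01, 0 with only B104 and CML333, and 1 to 7 with a library left out.

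Replicate numbers do not mark shared plants or batches in the labels, so the samples were not treated as paired. By the title's number, differences between replicates of control and chilled groups correlated at -0.0382 to 0.103 within lines. Pairing by the description's number was not checked in this way. With a replicate block by the title's number, 18 members rose in B104 and 8 in CML333, where 4731 and 1614 of 17410 IDs rose. By the description's number 17 and 1 members rose, where 4663 and 778 of the IDs did. In every library 3 counts exceed 1 CPM, so the level of a member that is off is not resolved.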
